A study of Mus musculus with 6 samples.

Results

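The caveolin and cavin genes of caveolae were followed in RNA-seq data of mouse cells at day 2 of beige adipocyte differentiation. They are *Cav1*, *Cav2* and *Cav3* (caveolins), *Cavin1*, *Cavin2*, *Cavin3* and *Cavin4* (cavins), and *Ehd2* and *Pacsin2* (proteins of the caveolar neck). These 9 genes were chosen by name, and each had 1 entry among the 56884 genes of every library. The cells were a subcutaneous white adipose tissue (scWAT) cell line of the stromal vascular fraction (SVF), the part of the tissue that holds adipocyte precursors. Retroviral transduction and puromycin selection gave cells that overexpress a mutant of mouse PPARγ2, either K382Q, in which glutamine resembles acetylated lysine, or K382R, in which arginine resembles the deacetylated form. They are called K382Q and K382R cells. Both kinds of cells were induced alike with isobutylmethylxanthine, indomethacin, dexamethasone, insulin, T3 and rosiglitazone, and 3 libraries labelled as biological replicates were made of each. No group with wild-type PPARγ2 and no uninduced group was analysed here, so a difference between the mutants cannot be assigned to either of them. The labels do not say whether the replicates came from separate transductions. The p-values set a difference only against the spread between these libraries, whatever its source.

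Caveolae are small flask-shaped pits of the plasma membrane and are very abundant in adipocytes, where they take part in fatty acid uptake and insulin signalling and flatten to buffer membrane tension. Caveolin-1 is inserted in the membrane and oligomerises with caveolin-2, and caveolin-3 takes its place in muscle. Cavin-1 coats the caveolin-rich membrane from the cytosol and is needed for caveolae to form. Cavin-2 and cavin-3 join cavin-1 in the coat, cavin-4 is known from muscle, and the ATPase EHD2 and the F-BAR protein PACSIN2 shape and hold the neck. Loss of caveolin-1 or cavin-1 causes lipodystrophy.

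*Cavin2* had by far the largest difference among the 9 genes, and its level in K382Q cells was 54.5% of that in K382R cells. *Cavin1* and *Ehd2* were lower by smaller amounts, to 76.6% and 79.6%. *Cav1*, *Cavin3* and *Pacsin2* were between 88.4% and 89.2%, close to the typical gene of these libraries, and *Cav2* was at 106%. No member passed the threshold of 2-fold. *Cav3* was listed at 0 in all 6 libraries and *Cavin4* was near 0.

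The stretches of DNA before the start sites are shown for *Cavin2*, which differed most, and for *Cav2* and *Cav1*, which are neighbours on chromosome 6 and differed from each other. Each is the 250 bases just before the gene's start in the deposited tables, taken from RefSeq promoters (of GRCm38.p6) and matched exactly to GRCm39, where *Cavin2* has chr1:51328035-51328284, *Cav2* chr6:17280934-17281183 and *Cav1* chr6:17306084-17306333, all on the plus strand. Capitals mark matches, on either strand, to the GC box with the letters GGGCGG, to the core of nuclear receptor sites with the letters AGGTCA, to the core of hypoxia response elements with the letters ACGTG, to the CCAAT box, to the TATA box with the letters TATAAA, or to the SRF CArG box.
Cavin2: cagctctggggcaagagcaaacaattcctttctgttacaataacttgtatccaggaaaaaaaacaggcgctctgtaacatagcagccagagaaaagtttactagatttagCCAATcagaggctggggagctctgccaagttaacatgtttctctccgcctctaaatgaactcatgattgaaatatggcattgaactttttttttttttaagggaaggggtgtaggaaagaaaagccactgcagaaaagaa
Cav2: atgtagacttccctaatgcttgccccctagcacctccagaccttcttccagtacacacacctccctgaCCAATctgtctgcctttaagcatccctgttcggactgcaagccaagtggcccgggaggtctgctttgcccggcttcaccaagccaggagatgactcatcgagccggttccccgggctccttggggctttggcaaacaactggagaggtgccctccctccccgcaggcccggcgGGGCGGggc
Cav1: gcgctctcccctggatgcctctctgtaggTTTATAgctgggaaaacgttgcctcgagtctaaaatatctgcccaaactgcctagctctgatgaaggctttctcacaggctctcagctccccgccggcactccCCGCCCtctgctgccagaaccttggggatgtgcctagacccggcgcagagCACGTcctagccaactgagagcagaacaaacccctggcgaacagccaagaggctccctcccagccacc
The *Cavin2* stretch held a CCAAT match 140 to 136 bases before the start and no other match. It had a GC content of 40.4% with 2 CpG dinucleotides, against a median of 52.4% and 6 over 32536 stretches of the same length in the RefSeq table. The *Cav2* stretch had a GC content of 62.0% with 10 CpG dinucleotides, a GC box 9 to 4 bases before the start and a CCAAT match 182 to 178 bases before it. The *Cav1* stretch had a GC content of 59.6% and also 10 CpG dinucleotides. It held a GC box 118 to 113 bases before the start, the ACGTG letters 68 to 64 bases before it and the TATAAA letters 221 to 216 bases before it, each read on the minus strand. No motif match in these 3 stretches overlapped another. Of all stretches of this length, 33.0% held a GC box, 33.8% a CCAAT box, 16.7% the hypoxia response core, 14% the nuclear receptor core, 12.3% a TATA box and 1.48% a CArG box. Promoters were found in the RefSeq table for 8 of the 9 genes, all but *Cavin3*. These matches describe letters in a window and are not binding data.

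Levels are given as TPM, the share of a library's transcripts that comes from a gene, corrected for length, so that genes can be compared with each other. The total length of aligned reads ranged from 5.95 to 7.50 Gb for K382Q and from 6.53 to 8.15 Gb for K382R. The mutants were compared with limma, on log2(TPM + 0.5), for the 15426 genes that reached a TPM of 0.5 in 3 or more libraries, and a gene passed at a Benjamini-Hochberg adjusted p-value under 0.05. Log2 fold changes are those of K382Q against K382R. The median log2 fold change over all tested genes was -0.14, and scaling by the median ratio between libraries brought it to 0.0032, so each member is also given relative to the median gene. In all, 48.1% of tested genes passed, 36.9% as lower in K382Q cells and 11.1% as higher. With 3 libraries against 3, an exact permutation test of a single value cannot give a two-sided p below 0.1. *Pparg* itself, whose reads can come from the transgene as well as from the cell, had a TPM of 1333, 1164 and 1104 in K382Q cells and 1590, 1632 and 1612 in K382R cells (log2 fold change -0.43, adjusted p = 0.000977, limma). With median-ratio scaling *Pparg* had -0.28 (adjusted p = 0.00785, limma), and with quantile normalization -0.57 (adjusted p = 0.00042, limma). *Sirt7* had a log2 fold change of -0.17 (adjusted p = 0.0433, limma) that did not pass with median-ratio scaling, and *Prdm16* was below the filter, with a mean TPM of 0.102 and 0.0742.

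Of the 9 genes, 7 passed the filter and were tested, and each of these 7 was above it in all 6 libraries. An adjusted p-value under 0.05 was reached by 6 of the 7, all lower in K382Q cells (limma), where 36.9% of all tested genes passed in that direction. The values of the 3 and 3 libraries did not overlap for the same 6 genes, which held for 42.8% of all tested genes in that direction. No member was a differentially expressed gene (DEG), for which the study also asked for a change of more than 2-fold, and 3.88% of tested genes were. The study called its DEGs with DESeq2 on counts, so the limma calls on TPM given here are not the study's own. The median log2 fold change of the 7 was -0.18, beside -0.14 over all tested genes. With median-ratio scaling, 3 members were lower and 1 was higher at an adjusted p-value under 0.05 (limma), where 20.4% of all tested genes passed as lower and 19.8% as higher. Quantile normalization gave the same counts of members (21.0% of all tested genes lower and 19.1% higher), as did FPKM (26.8% and 15.4%). *Cavin1*, *Cavin2* and *Ehd2* were the 3 that stayed lower under every scaling tried, and *Cav2* was the 1 that was higher.

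**Figure D1:**
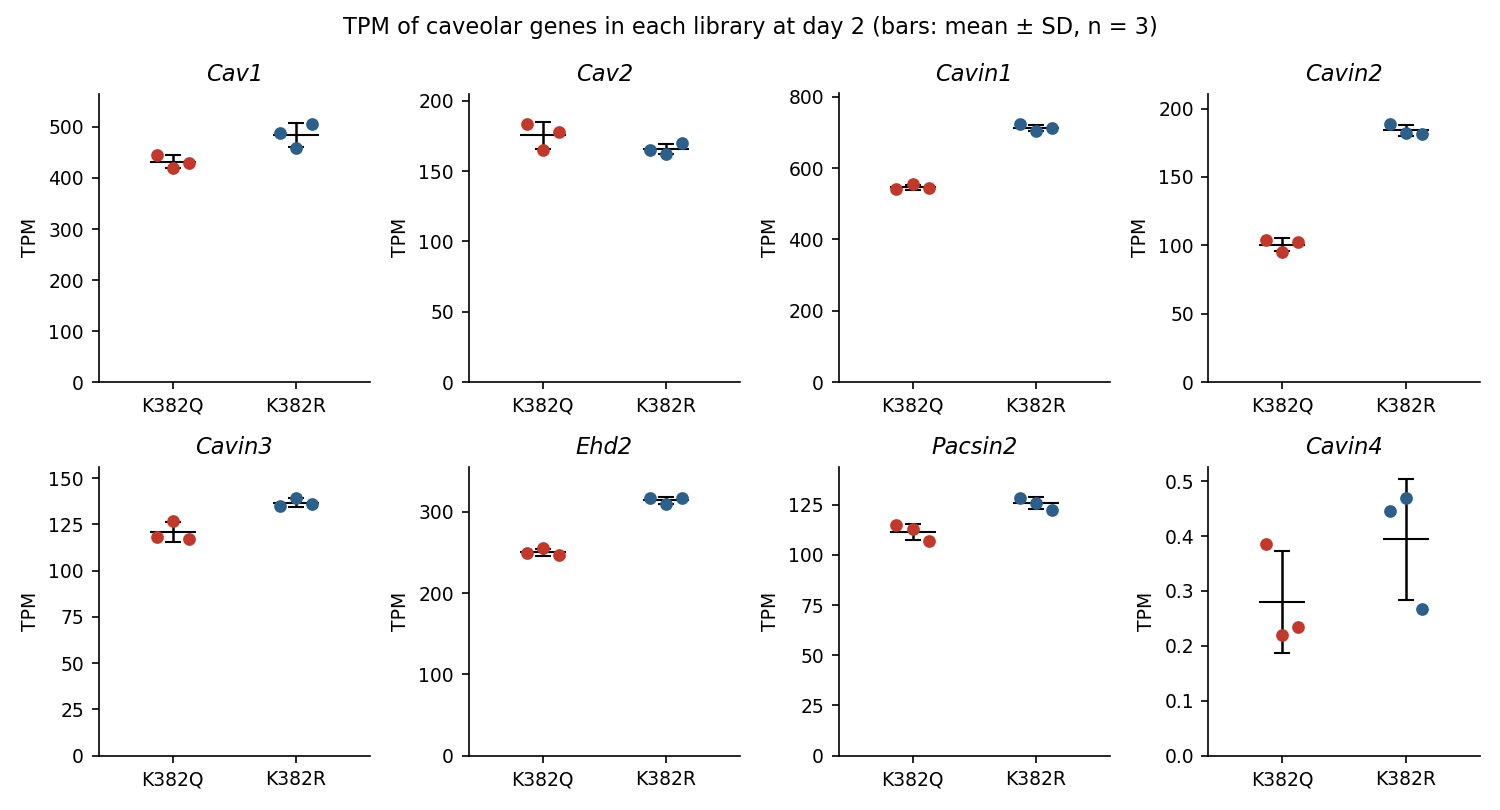
TPM (y axis, from 0, with its own scale in each panel) of 8 caveolar genes in the 3 libraries of K382Q and the 3 of K382R at day 2, with each point a library and bars for the mean ± SD. The points of *Cavin2*, *Cavin1* and *Ehd2* are far apart between the mutants, those of *Cav2* and *Cavin4* overlap, and *Cavin4* lies below a TPM of 0.5.

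*Cavin1* (ENSMUSG00000004044.10, chromosome 11, 100847559 to 100861713 of GRCm39, minus strand), which encodes the coat protein without which caveolae do not form, was the most abundant member in either mutant. Its TPM was 541, 554 and 544 in K382Q cells and 723, 705 and 712 in K382R cells. The groups were far apart compared with their SDs of 6.95 and 9.03 (n = 3 each). By limma, the difference was -0.38 on the log2 scale (standard error 0.0259, adjusted p = 1.86e-05), which is 0.25 below the median gene. Relative to the median gene it was -0.43 with quantile normalization. Over all 16 alternative settings *Cavin1* stayed lower, between -0.43 and -0.23, with an adjusted p (limma) of at most 0.000932.

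*Cavin2* (ENSMUSG00000045954.8, chromosome 1, 51328285 to 51342119, plus strand) encodes a cavin that binds phosphatidylserine and bends the caveolar membrane, and its promoter is the GC-poor stretch printed above. Its TPM was 104, 94.9 and 103 in K382Q cells and 188, 182 and 182 in K382R cells. Every library of the first group was well below every library of the second, with means of 100.4 ± 4.79 and 184 ± 3.81 (SD, n = 3). By limma, the difference was -0.87 on the log2 scale (standard error 0.0408, adjusted p = 3.59e-06), a 1.83-fold lower level and 0.74 below the median gene. Of all tested genes, 4.03% had a lower log2 fold change. Over the alternative settings it lay between -0.90 and -0.72, and the adjusted p (limma) was at most 0.000228.

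*Cavin3* (ENSMUSG00000037060.4, chromosome 7, 105129290 to 105131507, minus strand) encodes a cavin that links caveolae to protein kinase C signalling. Its TPM was 118, 127 and 117 in K382Q cells, all below the 135, 139 and 136 of K382R cells. By limma, the difference was -0.18 on the log2 scale (standard error 0.0388, adjusted p = 0.00649), only 0.043 below the median gene. With median-ratio scaling it was -0.027 and no longer passed (adjusted p = 0.655, limma). *Cavin3* and *Cavin2* thus changed places, since every *Cavin3* value was above every *Cavin2* value in K382Q cells and below every one in K382R cells.

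*Cavin4* (ENSMUSG00000028348.8, chromosome 4, 48663514 to 48673502), the muscle cavin, had a TPM of 0.386, 0.219 and 0.234 in K382Q cells and 0.445, 0.469 and 0.268 in K382R cells. The groups overlapped, all values were below the filter, and the mean coverage was only 0.572 to 1.5 reads per base. *Cav3* (ENSMUSG00000062694.8, chromosome 6, 112436466 to 112449833), the muscle caveolin, was listed at 0 in all 6 libraries, and no fold change is given for either gene.

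*Cav1* (ENSMUSG00000007655.17, chromosome 6, 17306334 to 17341451, plus strand), the principal caveolin of adipocytes, was the member with the next highest level after *Cavin1*. Its TPM was 446, 420 and 430 in K382Q cells and 489, 459 and 505 in K382R cells. The groups did not overlap, but the highest library of the first and the lowest of the second, 446 and 459, were closer to each other than the libraries within either group spread. By limma, the difference was -0.16 on the log2 scale (standard error 0.0414, adjusted p = 0.0127), 0.029 below the median gene. With median-ratio scaling it was -0.012 (adjusted p = 0.829, limma). The call was also lost with FPKM, with quantile normalization and without the intensity trend. Relative to the median gene *Cav1* was at -0.087 with quantile normalization.

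*Cav2* (ENSMUSG00000000058.7, chromosome 6, 17281184 to 17289114, plus strand) encodes the partner of caveolin-1 and lies 17.2 kb before *Cav1* on the same strand, with no tested gene between them. Its TPM was 183, 165 and 178 in K382Q cells and 165, 162 and 170 in K382R cells. The libraries of the mutants overlapped, with the first group reaching higher. The log2 fold change of 0.080 (standard error 0.0436, 95% confidence interval -0.021 to 0.18, adjusted p = 0.171, limma) did not pass. Relative to the median gene it was 0.22 higher, and with median-ratio scaling the log2 fold change was 0.23 and passed (adjusted p = 0.0025, limma). It also passed without K382Q replicate 2, the lowest library of its group, at 0.12 (adjusted p = 0.0252, limma).

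*Ehd2* (ENSMUSG00000074364.7, chromosome 7, 15680883 to 15701492, minus strand) encodes the ATPase that forms rings at the caveolar neck and keeps caveolae at the cell surface. Its TPM was 249, 255 and 246 in K382Q cells and 316, 309 and 317 in K382R cells, so the groups were clearly separate. By limma, the difference was -0.33 on the log2 scale (standard error 0.0277, adjusted p = 5.45e-05), 0.19 below the median gene, and it was -0.18 with median-ratio scaling (adjusted p = 0.00272, limma). *Pacsin2* (ENSMUSG00000016664.17, chromosome 15, 83259808 to 83348807, minus strand) encodes an F-BAR protein that bends membranes at the neck. Its TPM was 115, 113 and 107 in K382Q cells and 128, 126 and 122 in K382R cells. These ranges did not overlap, and the difference was -0.17 on the log2 scale (limma, standard error 0.0369, adjusted p = 0.00623), 0.036 below the median gene. With median-ratio scaling it was -0.020 (adjusted p = 0.699, limma).

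**Figure D2:**
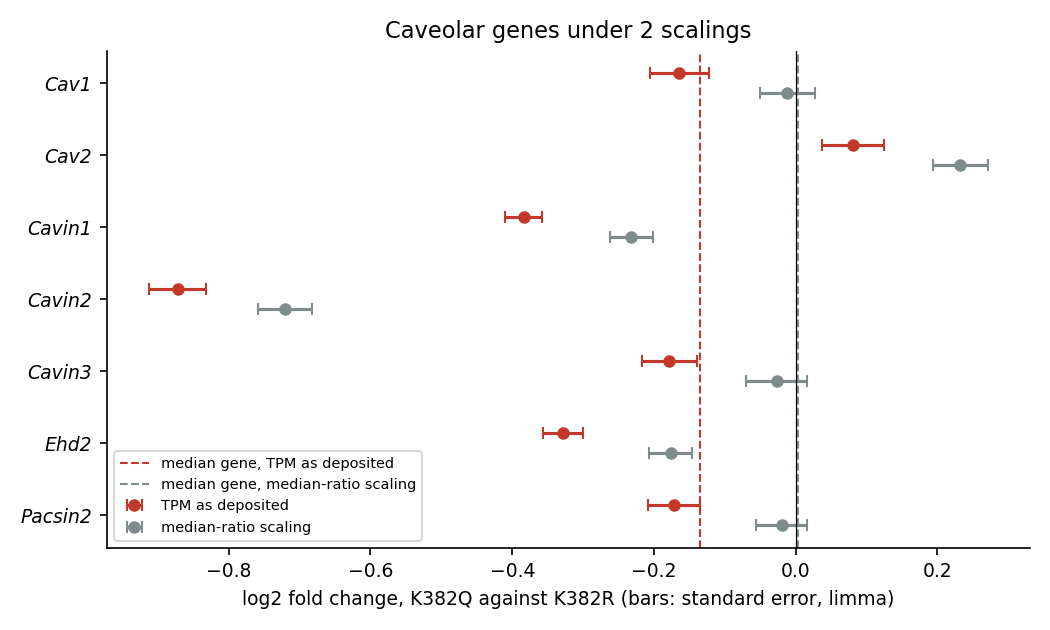
Log2 fold change of K382Q against K382R (x axis, limma, bars for the standard error) for the 7 tested caveolar genes, on deposited TPM and after median-ratio scaling, with dashed lines at the median of all tested genes on each scale. *Cavin2*, *Cavin1* and *Ehd2* lie to the left of the median line on both scales, *Cav1*, *Cavin3* and *Pacsin2* lie near it, and *Cav2* lies to its right.

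By mean TPM over the 6 libraries, the order of levels was *Cavin1* (630), *Cav1* (458), *Ehd2* (282), *Cav2* (171), *Cavin2* (142), *Cavin3* (129), *Pacsin2* (119), *Cavin4* (0.337) and *Cav3* (0). Neighbours in this order were not everywhere distinct. In K382Q cells *Cavin3*, *Pacsin2* and *Cavin2* followed *Cav2* in another order, and the values of *Pacsin2* and *Cavin2* there, 107 to 115 and 94.9 to 104, were close. In K382R cells *Cavin2* was above *Cav2*, with no overlap between 182 to 188 and 162 to 170. The summed TPM of the 9 genes was 1725 to 1756 in K382Q cells and 2083 to 2145 in K382R cells. Most of this difference was in the cavins, whose sum was 763 to 776 against 1026 to 1046, while the caveolins summed to 585 to 629 against 622 to 675 and overlapped. These sums are of deposited TPM, on which the median tested gene was itself lower in K382Q cells, at a log2 fold change of -0.14.

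Ratios between members within a library do not change when a library is scaled by a single factor, and 5 were compared. Quantile normalization is not such a scaling. It kept the direction of all 5 differences of ratios but moved 3 of them by over 1.5 times, and its values stand beside those. The ratio of *Cavin2* to *Cavin1* was 0.191, 0.171 and 0.189 in K382Q cells and 0.261, 0.258 and 0.255 in K382R cells, a difference of -0.49 on the log2 scale (-0.33 with quantile normalization). *Cavin2* was thus lower also relative to the coat protein with which it assembles. The ratio of *Cavin3* to *Cavin1* went the other way, from 0.187 to 0.198 in K382R cells to between 0.216 and 0.229 in K382Q cells (log2 difference 0.20, or 0.38 with quantile normalization). The ratio of *Cavin1* to *Cav1* was 1.21, 1.32 and 1.26 against 1.48, 1.53 and 1.41 (log2 difference -0.22, or -0.34 with quantile normalization). The ratio of *Ehd2* to *Cav1* was 0.559, 0.607 and 0.573 against 0.647, 0.673 and 0.628 (log2 difference -0.16). *Cavin1* and *Ehd2* thus had lower values per *Cav1* transcript in every K382Q library than in any K382R library. The ratio of *Cav2* to *Cav1* was 0.411, 0.392 and 0.414 against 0.337, 0.354 and 0.336 (log2 difference 0.24). Each of the 5 differences had an exact two-sided permutation p of 0.1, the smallest that 3 against 3 can give (also 0.1 after Benjamini-Hochberg adjustment over 5 ratios).

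**Figure D3:**
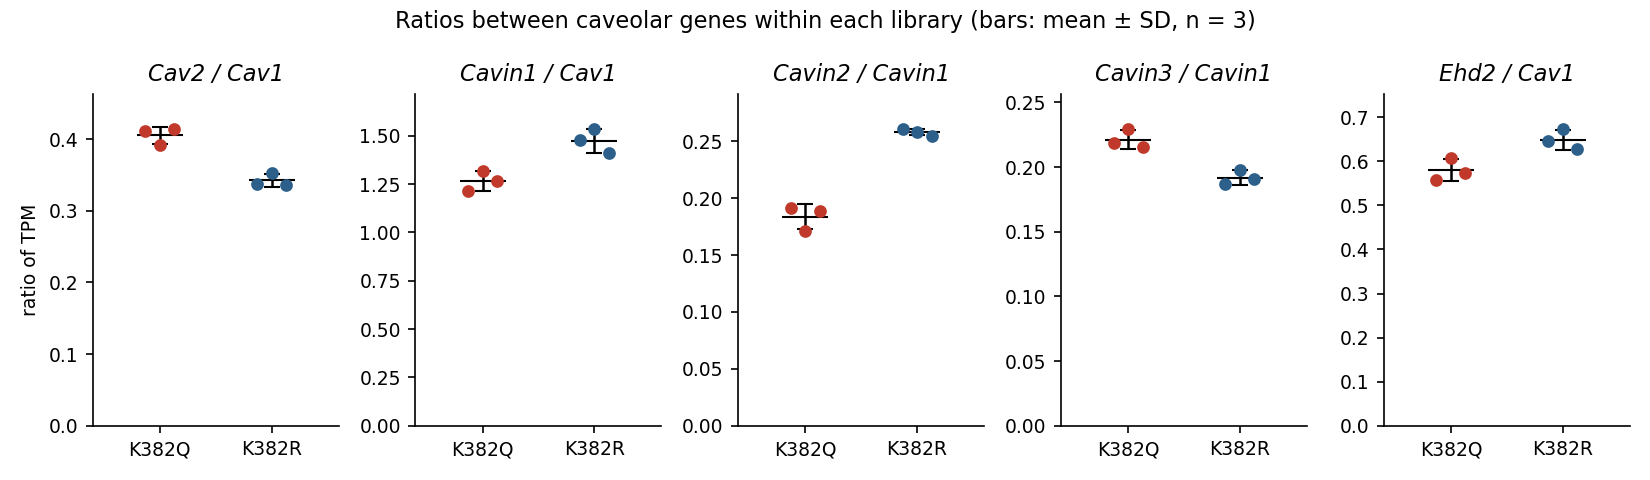
Ratio of TPM between pairs of caveolar genes (y axis, from 0) in each of the 6 libraries, with bars for the mean ± SD (n = 3). The ratios of *Cav2* to *Cav1* and of *Cavin3* to *Cavin1* are higher in every K382Q library than in any K382R library, and the other 3 ratios are lower.

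The likeness of 2 profiles was measured as the root mean square difference of log2(TPM + 0.5), centred on each gene's mean, over the 6 libraries. Among the 7 tested members the closest pair was *Cavin1* and *Ehd2* (0.0298), followed by *Cavin3* and *Pacsin2* (0.0464), and the most distant was *Cav2* and *Cavin2* (0.477). *Cav1* and *Cav2*, although neighbours, differed by 0.127. Among 10637 other genes with a mean TPM of at least 5, those most like *Cavin1* were *Chchd4* (0.0135), *Col6a3* (0.0149), *Eftud2* (0.0154), *Abcf2* (0.0155) and *Osbpl5* (0.0159). Those most like *Cavin2* were *Car13* (0.0257), *Pcdhgc3* (0.0305), *Pop1* (0.0321), *Psma5* (0.0366) and *Vcan* (0.0391). Their log2 fold changes were between -0.89 and -0.83, which selection by likeness to *Cavin2* largely fixed.

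The relatives of the neck proteins and the dynamins were measured beside *Ehd2* and *Pacsin2*. Of 8 genes, 6 were tested, and 3 were lower and none higher in K382Q cells at an adjusted p-value under 0.05 (limma), where 36.9% of all tested genes were lower. *Ehd1*, which acts in endocytic recycling and can stand in for EHD2, had a log2 fold change of -0.57 (adjusted p = 6.46e-06, limma), and *Ehd4* of -0.40 (adjusted p = 0.000118, limma), so that the 3 EHD genes above the filter were all lower. Both passed with median-ratio scaling, at -0.42 for *Ehd1* and -0.25 for *Ehd4*. *Dnm2*, the general dynamin of membrane scission, had -0.19 (adjusted p = 0.00144, limma) and did not pass with median-ratio scaling (-0.040, adjusted p = 0.363, limma). *Dnm1*, the neuronal dynamin, had 0.38 at a mean TPM of 1.85 and 1.29 and did not pass (adjusted p = 0.108, limma). Of the flotillins, which form membrane domains distinct from caveolae, *Flot1* had -0.27 (adjusted p = 0.00194, limma) and *Flot2* -0.17 (adjusted p = 0.0103, limma). Neither flotillin passed with median-ratio scaling. On TPM, 36.9% of all tested genes also passed as lower.

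Kinases and anchors that act on caveolae were lower in 6 of 6 tested genes of a list of 7 (limma, adjusted p under 0.05), against 36.9% of all tested genes. With median-ratio scaling 3 of the 6 were lower, against 20.4% of all tested genes. *Flna*, the filamin known to bind caveolin-1 and tether caveolae to actin, had a log2 fold change of -0.47 (adjusted p = 1.12e-05, limma). *Bves*, a membrane protein of muscle that binds caveolin-3, had -0.58 (adjusted p = 0.00217, limma), and *Fyn*, a kinase of caveolin-1, had -0.36 (adjusted p = 0.00107, limma), or -0.21 with median-ratio scaling (adjusted p = 0.0215, limma). *Src*, the kinase that phosphorylates caveolin-1 on tyrosine, had -0.29 (adjusted p = 0.0392, limma) and did not pass with median-ratio scaling (-0.15, adjusted p = 0.268, limma). Of the 4 tested genes of proteins that reside in caveolae, 2 were lower and 2 higher, against 36.9% and 11.1% of all tested genes. *Cd36*, the fatty acid translocase whose surface location depends on caveolin-1, was higher, at a TPM of 2238 ± 62.0 against 1657 ± 10.2 (SD, n = 3; log2 fold change 0.43, adjusted p = 2.24e-05, limma). With quantile normalization the difference of *Cd36* was 0.22 (adjusted p = 0.000885, limma). *Plvap*, a protein of caveolar diaphragms in endothelium, was also higher (0.44, adjusted p = 0.00333, limma). The insulin receptor gene *Insr* had -0.14 (adjusted p = 0.0363, limma), the level of the median gene, and its sign turned with median-ratio scaling (0.011, adjusted p = 0.851, limma). *Igf1r* had -0.33 (adjusted p = 0.0451, limma) and lost its call with median-ratio scaling (-0.21, adjusted p = 0.194, limma). *Nos3*, the endothelial nitric oxide synthase, was below the filter, with a mean TPM of 0.151 in both groups.

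**Figure D4:**
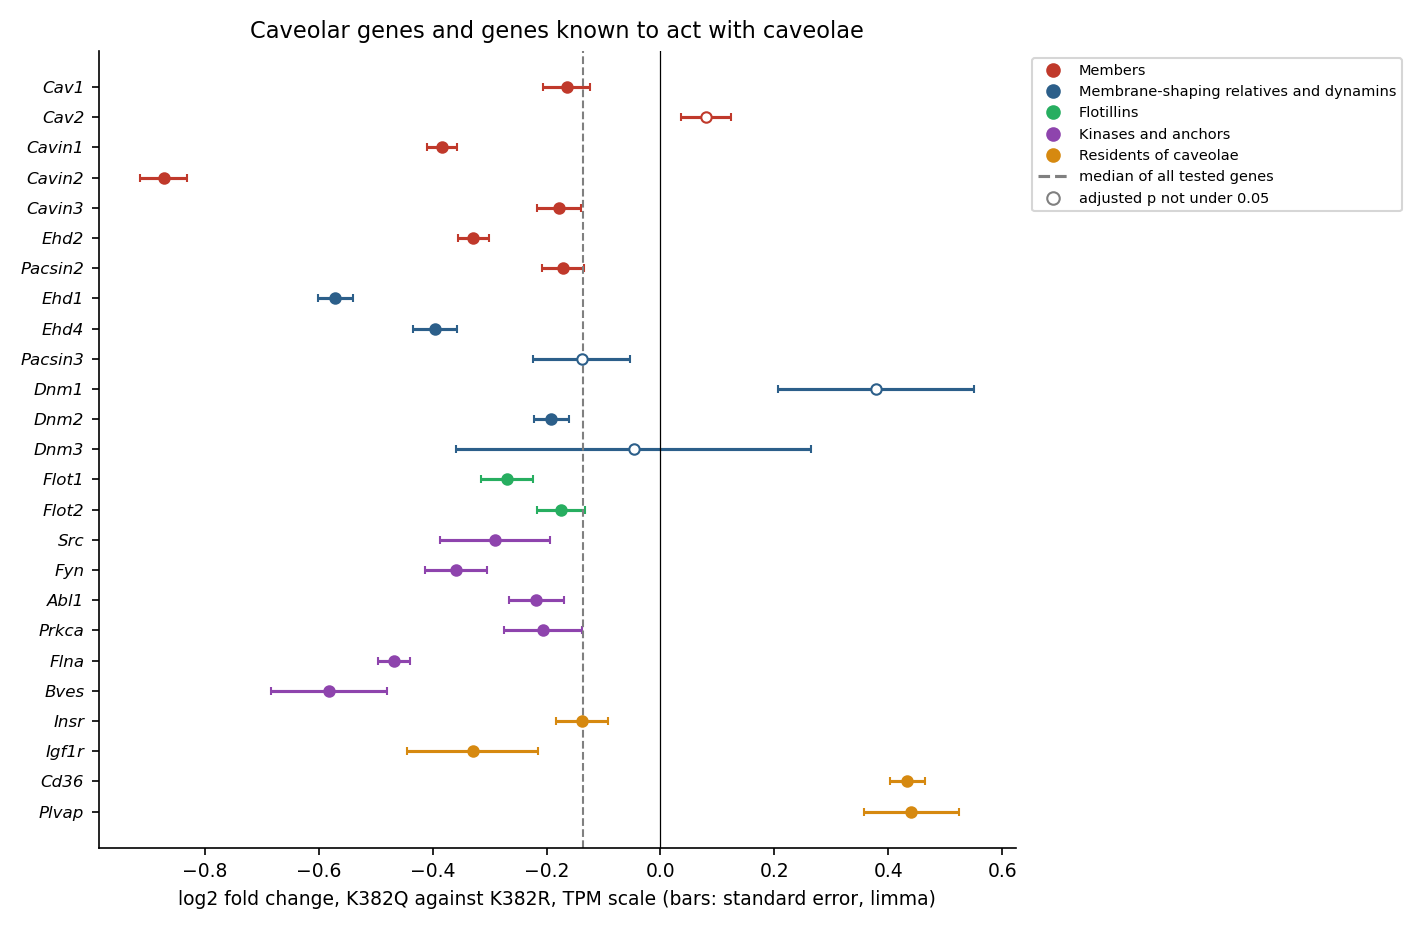
Log2 fold change of K382Q against K382R on the TPM scale (x axis, limma, bars for the standard error) for the 7 tested caveolar genes and the tested genes of 4 lists of genes that act with caveolae, with open points where the adjusted p-value was not under 0.05 and a dashed line at the median of all tested genes, -0.14. *Cavin2* lies farthest to the left, and *Cd36* and *Plvap* lie to the right.

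Other genes in which variants cause lipodystrophy were set beside *Cav1* and *Cavin1*, which belong to the same group of disorders. All 9 were tested, with 2 higher and with 3 lower in K382Q cells at an adjusted p-value under 0.05 (limma) and 4 that did not pass, where 11.1% of all tested genes were higher and 36.9% lower. Their median log2 fold change was -0.087, beside -0.14 over all tested genes. *Lmna*, which encodes lamin A/C, had -0.63 (adjusted p = 3.48e-06, limma), and *Zmpste24*, the protease that matures lamin A, had -0.38 (adjusted p = 0.000385, limma), or -0.23 with median-ratio scaling (adjusted p = 0.00409, limma). *Cidec*, a lipid droplet gene, had 0.27 (adjusted p = 0.00108, limma) and did not pass with quantile normalization (0.071, adjusted p = 0.221, limma). The third lower gene was *Pparg*, given above, and *Agpat2*, an enzyme of triglyceride synthesis, was the other higher gene (0.27, adjusted p = 0.000344, limma). With median-ratio scaling *Cidec* had 0.43 and *Agpat2* 0.42 (adjusted p = 0.000371 and 8.24e-05, limma). With median-ratio scaling 4 were higher and 3 lower, against 19.8% and 20.4% of all tested genes.

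Markers of the cell types that could hold caveolae were read in the same libraries. Adipocyte markers were abundant in all libraries, with a sum of 8 genes of 51286 to 55214 TPM in K382Q cells and 42097 to 43381 in K382R cells, most of it *Fabp4*. Of 7 tested, 4 were higher and 2 lower (limma), with *Fabp4* at 0.34, *Slc2a4* at 1.18, *Cfd* at 1.23 and *Adipoq* at -1.28 as log2 fold changes, against 11.1% of all tested genes higher and 36.9% lower, and *Lep* was at 0. With median-ratio scaling 5 were higher and 1 lower, against 19.8% and 20.4% of all tested genes. With quantile normalization 2 were higher and 2 lower, against 19.1% and 21.0%, and *Cidec* lost its call. That method gives *Fabp4* the same value in every library, so it holds no comparison of *Fabp4*. The 3 tested of 7 adipocyte progenitor markers were all lower (limma), against 36.9% of all tested genes, with log2 fold changes of -0.88 for *Pdgfra*, -0.75 for *Pdgfrb* and -0.72 for *Ly6a*, and the sum of the 7 was 461 to 507 against 769 to 807 TPM, with *Dpp4* at 0. Of 4 smooth muscle and myofibroblast markers, 2 were tested. The sum of the 4 was 1.96 to 2.23 against 15.4 to 18.0 TPM, both tested genes were lower (limma), against 36.9% of all tested genes, and the log2 fold change was -3.44 for *Acta2* and -1.26 for *Tagln*, while *Cnn1* and *Myh11* were below the filter, with a mean TPM of 0.175 against 0.43 and of 0.408 against 0.416. The tested progenitor, smooth muscle and myofibroblast markers were lower in K382Q cells, as were *Cavin1*, *Cavin2* and *Ehd2*, and their part in that result was not tested. In bulk RNA fewer cells of a kind and less RNA per cell cannot be told apart. Endothelial markers, of a cell type rich in caveolae, summed to 1.65 to 2.25 against 1.71 to 1.94 TPM over 7 genes. Most of this was *Pecam1*, and *Emcn* was at 0 in all libraries. Skeletal muscle markers summed to 7.06 to 8.42 against 7.84 to 9.33 TPM, with 1 of 2 tested genes higher (*Des*) and 1 lower (*Acta1*), and *Myod1*, *Myog* and *Myh4* at 0, as was the muscle caveolin *Cav3*. Leukocyte markers summed to 3.52 to 4.76 against 3.35 to 5.20 TPM, nearly all *Cd68*, with *Adgre1* and *Cd3e* at 0.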

How the data were processed

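The authors sequenced 3 RNA libraries each of K382Q and K382R cells, and used HISAT2 for the alignment of trimmed reads to GRCm39 and StringTie for gene abundances. The annotation release is not given in the sources used here. The deposited TPM has the same total in every library and so gives shares, not amounts. The deposited FPKM is scaled to the aligned reads of the library, and the deposited coverage is the mean signal per base, without normalization. Counts were not analysed here, so no counting interval is given. Coverage per base is not comparable between genes with several transcripts. The highest ratio of coverage to FPKM among genes with an FPKM of at least 5 gave the aligned length of a library.

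Entries that shared a gene ID (3 to 5 extra per library) were summed. limma 3.58.1 in R 4.3.3 was run on log2(TPM + 0.5) with an intensity trend and Benjamini-Hochberg adjustment. It covered all 15426 genes that reached a TPM of 0.5 in 3 or more libraries. On simulated data with 200 changed genes, it called 174 of them in the right direction and also called 11 unchanged genes. The simulation had far fewer changed genes than these data and no shift of the median gene. Other steps used Python 3.11.15, pandas 2.3.3, numpy 2.4.6, scipy 1.17.1 and matplotlib 3.10.9. At most 0.0145% of the values above 0 were identical in any pair of libraries. The members and lists were chosen with earlier results of these data known. The genes named are the 9 members, *Pparg*, *Sirt7*, *Prdm16*, up to 4 genes of each list (those of largest absolute log2 fold change, with a mean TPM of 1 or more) (all genes of lists of 5 or fewer), and the 5 genes most like the most abundant member and the member with the largest change. *Agpat2*, *Des* and *Acta1* complete small counts, and *Lep*, *Dpp4*, *Emcn*, *Myod1*, *Myog*, *Myh4*, *Adgre1*, *Cd3e* are named as markers at 0. An item of the lists is not reported here. The alternatives were other pseudocounts (1 or 0.1), filters and scalings, FPKM, array weights, no trend, a block for the replicate number, and each library left out.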

Additional observations from a re-analysis of the deposited data

How the results depend on the processing

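Of the 7 tested members, *Cavin1*, *Cavin2* and *Ehd2* kept their direction and call under all 16 alternatives, and no member reversed its direction. The scaling decided 4 others. With FPKM, the log2 fold changes of *Cav1*, *Cavin3* and *Pacsin2* were -0.080, -0.094 and -0.087 (adjusted p = 0.146, 0.0933 and 0.109, limma), and that of *Cav2* was 0.16 (adjusted p = 0.0182). With median-ratio scaling they were -0.012, -0.027 and -0.020 (adjusted p = 0.829, 0.655 and 0.699, limma), and *Cav2* had 0.23 (adjusted p = 0.0025). With quantile normalization they were -0.092, -0.051 and -0.045 (adjusted p = 0.127, 0.35 and 0.366, limma), and *Cav2* had 0.18 (adjusted p = 0.0111). Without the intensity trend, *Cav1* kept -0.16 with an adjusted p of 0.0504 (limma). With each library left out in turn, *Cav2* lay between 0.048 and 0.12, *Cav1* between -0.20 and -0.13, *Cavin3* between -0.22 and -0.16 and *Pacsin2* between -0.19 and -0.14, and *Cav2* passed only without K382Q replicate 2. Over all genes, 599 DEGs became 889 with a pseudocount of 0.1, 443 with a pseudocount of 1 and 379 with FPKM (152 higher and 227 lower), and the split of 196 higher and 403 lower became 287 and 296 with median-ratio scaling and 277 and 306 with quantile normalization. From coverage in place of TPM, the log2 difference of the ratio of *Cav2* to *Cav1* was 0.19, not 0.24, and the other 4 ratios moved by less than their SD. Quantile normalization of the ratios, an alternative added after seeing the data, gave -0.34 for *Cavin1* to *Cav1*, -0.33 for *Cavin2* to *Cavin1* and 0.38 for *Cavin3* to *Cavin1*, and moved the other 2 ratios by less than their SD. The cause was not tested. Same-numbered libraries of the mutants correlated at -0.0177, 0.0507 and 0.0223 in their deviations from the group means. Differently numbered pairs lay between -0.0639 and 0.0389. With 3 libraries per group, these values cannot tell whether same-numbered libraries shared a culture or a preparation. With the replicate number as a block, the members' calls were the same 6, *Cavin2* stayed at -0.87 (adjusted p = 5.15e-05, limma), and 604 genes were DEGs. *Cavin4* and *Cav3* were below the filter. Tested without a filter, *Cavin4* did not pass (adjusted p = 0.456, limma).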

Other observations

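The tested genes on either side of *Cav2* and *Cav1* were looked up after the values of this pair were seen. *Tes*, 175 kb before *Cav2*, had a TPM of 14.2 ± 1.14 in K382Q cells and 15.8 ± 0.362 in K382R cells (SD, n = 3), a log2 fold change of -0.15 that did not pass (adjusted p = 0.109, limma). *Met*, the receptor of hepatocyte growth factor, 122 kb after *Cav1*, had 12.1 ± 0.43 against 15.4 ± 0.543 (SD, n = 3), lower in 3 of 3 libraries, with a log2 fold change of -0.33 (adjusted p = 0.00243, limma). With other scalings, tried after seeing the data, *Met* had -0.18 with median-ratio scaling (adjusted p = 0.0403, limma) and lost its call with quantile normalization (-0.16, adjusted p = 0.0611, limma). *Tes* had -0.0047 with median-ratio scaling (adjusted p = 0.965, limma), and its sign turned with quantile normalization (0.020, adjusted p = 0.838, limma).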
